A study of Homo sapiens with 24 samples.

Results

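The baseline of DBTRG-05MG was described from its 3 control libraries (“Vec”), out of 24 libraries in the whole study, against the 9 “Vec” libraries of the glioblastoma lines U87MG, T98G, and U251MG. DBTRG-05MG is an established human glioblastoma line, and the question was which genes set its control state, without the WWOX vector, apart from that of the other lines. The members are libraries chosen by their labels, and each of the other lines had the same weight. Of 43037 genes in the deposited table, 40570 were autosomal, and 11474 of these reached a CPM (tags scaled to a library total of 1000000) of 5 in at least 1 “Vec” library and were tested.

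CAGE-Seq, which counts tags from the capped 5′ ends of transcripts, was run on 3 libraries of each of 2 stable variants per line, named “Vec” and “WWOX”. “Vec” cells were transduced with Puro-Blank Lentivirus, while “WWOX” cells received pLenti-GIII-CMV-GFP-2A-Puro for overexpression of WWOX (WW domain-containing oxidoreductase). Both variants of every line were infected at a multiplicity of 1.5 and selected with 1 µg/mL puromycin, so the control cells are selected transductants rather than parental cells. DBTRG-05MG was grown in RPMI 1640 with 1 mM sodium pyruvate, T98G in MEM, and U87MG and U251MG in EMEM. Line and medium therefore cannot be told apart in any value below. The 3 libraries of a variant are described in the methods as a biological triplicate of 1 line, hence values of p measure the spread between such libraries and not the spread between patients or lines. With lines as units, 1 against 3 cannot give an exact permutation p under 0.25.

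The DBTRG-05MG “Vec” libraries held 15182804 to 15531104 tags on genes, and the 9 others 12333788 to 15960454, so 3 tags corresponded to 0.188 to 0.243 CPM. Across genes, log2 levels of 2 DBTRG-05MG libraries correlated with r from 0.963 to 0.981, while r was 0.809 to 0.838 with U251MG, 0.725 to 0.798 with T98G, and 0.726 to 0.763 with U87MG (genes are not independent, and these r are descriptive). Within T98G, r was 0.936 to 0.988. The median absolute log2 difference between T98G “Vec” 2 and 3 was 0.618, against 0.614 between T98G “Vec” 2 and DBTRG-05MG “Vec” 2. Without T98G “Vec” 2, 3144 genes were called higher and 2782 lower. The T98G “Vec” libraries 1 and 2 stood apart for genes typical of DBTRG-05MG. A set of 15 such genes was chosen for at least 20 CPM in each DBTRG-05MG “Vec” library. They were also at or under 3 tags in the U87MG and U251MG “Vec” libraries and in the T98G “WWOX” libraries. Their sum reached 0.54%, 0.725%, and 0.11% of its mean DBTRG-05MG “Vec” level in T98G “Vec” 1 to 3. The share in T98G “WWOX”, at most 0.0165%, was held low by this choice. Among the U87MG and U251MG “WWOX” libraries, which did not enter the choice, the highest share was 0.0679%. The source of the tags in T98G “Vec” 1 and 2 was not tested. Without these 2 libraries (chosen after seeing the data) the counts given below became 2974 genes higher and 2582 lower, 601 and 274 distinct, and 516 instead of 528 distinct again in the “WWOX” libraries.

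Glioblastoma cells differ in how far they resemble astrocytes, neural progenitors, or mesenchymal cells, and lines derived from them keep part of that variation in culture. Transcription factors of the HOX clusters, which pattern the body axis and are silent in most of the adult forebrain, are often active in glioblastoma. Keratins, desmosomal plaque proteins, and claudins are hallmarks of epithelia, whereas fibrillar collagens mark fibroblasts and perivascular cells.

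The labelled identity was checked against markers. In DBTRG-05MG “Vec” cells the defining immune markers were all at or under 3 tags (6 of 6), and the endothelial, fibroblast, and melanocyte lists had no member with a mean of 5 CPM. The astrocyte markers summed to 35.5 to 102 CPM per library, with S100B, GJA1, and FABP7 present and SLC1A3 at or under 3 tags, which overlapped U87MG (55.3 to 69.2 CPM), exceeded T98G (9.11 to 27.3 CPM), and was far below U251MG (2350 to 3531 CPM). Neuron markers summed to 75 to 134 CPM, a range that started and ended lower than those of U87MG (123 to 183 CPM), T98G (130 to 185 CPM), and U251MG (93.8 to 187 CPM) and overlapped each. Neural progenitor markers summed to 74.7 to 133 CPM, which lay above U87MG (1.28 to 2.55 CPM) and T98G (0.389 to 1.97 CPM) and overlapped U251MG (118 to 307 CPM). Epithelial markers summed to 928 to 1291 CPM through KRT18 and KRT8, with CDH1 at or under 3 tags, against 213 to 367 CPM in T98G, 37.7 to 86.5 CPM in U251MG, and 0.386 to 0.568 CPM in U87MG. Fibroblast and perivascular markers summed to 2.68 to 5.02 CPM, against at least 76.4 CPM in each library of the other lines.

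Promoter sequences are shown for 4 genes that carry the contrast, 3 of them high in DBTRG-05MG “Vec” cells alone and 1 (CAV2) low in them alone. They are the 250 bases before the most upstream annotated start of the gene in RefSeq (build GRCh38.p14), written 5′ to 3′ on the strand of the gene. Which start these cells used was not examined. CDKN2C lies at chr1:50960495-50960744 (plus strand), AREG at chr4:74444886-74445135 (plus), FLG at chr1:152325240-152325489 (minus), and CAV2 at chr7:116499488-116499737 (plus). Capitals mark matches on either strand to TATAAA, to TGANTCA (the letters bound by AP-1 factors), or to GGGCGG (the letters bound by SP factors), or to their reverse complements.
CDKN2C: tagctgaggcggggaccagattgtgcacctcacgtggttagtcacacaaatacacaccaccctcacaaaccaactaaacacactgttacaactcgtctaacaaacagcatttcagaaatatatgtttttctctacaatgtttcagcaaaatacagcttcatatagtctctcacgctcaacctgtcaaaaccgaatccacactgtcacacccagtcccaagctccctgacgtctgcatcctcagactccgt
AREG: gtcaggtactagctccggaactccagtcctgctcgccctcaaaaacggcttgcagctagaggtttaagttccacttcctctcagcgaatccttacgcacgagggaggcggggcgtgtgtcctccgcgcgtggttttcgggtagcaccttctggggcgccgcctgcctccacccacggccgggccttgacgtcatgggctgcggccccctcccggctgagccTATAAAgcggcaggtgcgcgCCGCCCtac
FLG: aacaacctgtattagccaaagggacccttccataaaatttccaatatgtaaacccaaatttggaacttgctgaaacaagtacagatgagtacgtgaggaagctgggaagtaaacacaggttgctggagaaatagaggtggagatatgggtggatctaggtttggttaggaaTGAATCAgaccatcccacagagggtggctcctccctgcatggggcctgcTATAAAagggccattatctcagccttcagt
CAV2: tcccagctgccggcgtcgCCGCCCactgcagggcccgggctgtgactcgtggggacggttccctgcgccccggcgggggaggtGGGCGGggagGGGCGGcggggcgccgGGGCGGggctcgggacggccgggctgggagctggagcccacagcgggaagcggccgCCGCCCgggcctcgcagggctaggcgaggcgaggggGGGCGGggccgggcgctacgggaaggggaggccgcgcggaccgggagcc

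AREG and FLG each hold 1 TATAAA, starting 29 and 30 bases before the start (positions -29 and -30). AREG also holds GGGCGG on the minus strand at position -9, and FLG holds TGANTCA at position -79, a palindromic motif that counts on both strands. CAV2 holds 6 matches to GGGCGG and no TATAAA, and CDKN2C holds none of the 3 motifs. Among 26246 autosomal promoters of the same length, 11.3% hold TATAAA, 6.53% TGANTCA, and 42.3% GGGCGG on either strand. These matches are descriptions of the letters and do not show binding.

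A total of 5248 genes differed between DBTRG-05MG “Vec” and the mean of the other lines at an adjusted p under 0.05 (45.7% of 11474), with 2775 higher (24.2%) and 2473 lower (21.6%). The pairwise contrasts called 47.3% of genes against U87MG, 44.1% against T98G, and 34.2% against U251MG. Because calls were this frequent, a stricter set was described. A gene was termed distinct when DBTRG-05MG differed from each of the other lines in the same direction by at least 1 on the log2 scale and at an adjusted p under 0.05, with its 3 libraries outside the range of the 9 others after scaling. There were 599 distinct genes higher (5.22%) and 274 lower (2.39%) in DBTRG-05MG. Applied to the other lines in turn, the same definition gave 568 higher and 675 lower for U87MG, 491 and 357 for T98G, and 275 and 262 for U251MG. Of the distinct genes higher in DBTRG-05MG, 554 were protein-coding and 38 were long noncoding RNA genes, and 139 exceeded the nearest line by at least 3 on the log2 scale. Of those lower, 240 were protein-coding and 29 were long noncoding, and 17 lay at least 3 below the nearest line. The level filter bears on these counts, since 292 of the 599 reached 5 CPM in libraries of DBTRG-05MG only and 118 of the 274 in libraries of the other lines only. Just inside the limit of 1 to the nearest line were TCIRG1 (1.0026) and RPL27A (-1.0015), and just outside it PDE9A (0.9996) and NABP1 (-0.9992).

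Among the distinct genes with the widest gap to the nearest line were CALB1, SERPINB5, MFAP5, FLG, TFF2, ESM1, NPFFR2, SOD3, HOXB8, and AREG. MFAP5, a microfibril-associated glycoprotein (chr12:8637346-8662888, minus strand), had 263, 279, and 264 CPM in DBTRG-05MG “Vec” 1 to 3, 0 in each U87MG library, 0.914, 2.13, and 0 CPM in T98G, and 0.162, 0.0796, and 0 CPM in U251MG. All 3 DBTRG-05MG libraries stood far above every other library, at least 1159-fold over U87MG when that line is set to 3 tags per library. The log2 difference from the mean of the other lines was 8.45 ± 0.35 (SE, adjusted p = 7.27e-10). Here and below, log2 differences are on the scale of log2(CPM + 0.5), so those of genes near 0 in other lines depend on the added 0.5 and are not bounds.

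SERPINB5, the serine protease inhibitor maspin of epithelia, had 338, 281, and 403 CPM in DBTRG-05MG and at most 2.38 CPM in any other library (difference 8.65 ± 0.32, adjusted p = 2.15e-10). CALB1, which encodes the calcium-binding protein calbindin, had 275, 134, and 397 CPM and at most 0.752 CPM elsewhere (8.59 ± 0.30, adjusted p = 1.72e-10). FLG, the filaggrin of the cornified skin layer, had 116, 133, and 137 CPM and at most 0.689 CPM elsewhere (7.59 ± 0.21, adjusted p = 1.03e-10). None of these genes overlapped between DBTRG-05MG and any other line, which the definition requires of every distinct gene after scaling. The small values in other lines were mostly those of T98G “Vec” 1 and 2. SOD3, the extracellular superoxide dismutase (chr4:24789912-24800842, plus strand), had 3501, 1355, and 2733 CPM in DBTRG-05MG, 21.6, 23.9, and 16.6 CPM in U87MG, 13.9, 10.6, and 3.42 CPM in T98G, and 8.68, 6.92, and 6.09 CPM in U251MG. DBTRG-05MG exceeded U87MG 122-fold and U251MG 350-fold (difference from all lines 7.56 ± 0.34, adjusted p = 1.02e-09). No fold is given for T98G, since its “WWOX” libraries had 0, 0.0742, and 0 CPM and its “Vec” values were a small share of the DBTRG-05MG level, as for the 15 genes above.

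Further secreted or receptor genes followed the same pattern. TFF2, a trefoil peptide of mucous epithelia, had 131 to 194 CPM in DBTRG-05MG and 0 to 1.34 CPM in the others. AREG, the EGFR ligand amphiregulin, had 113, 173, and 124 CPM, 0 in every U87MG and U251MG library, and 0.467 to 1.5 CPM in T98G. ESM1, the endothelial proteoglycan endocan, ranged from 48.2 to 149 CPM, and NPFFR2, a neuropeptide FF receptor, from 70.6 to 99.5 CPM, with at most 0.752 CPM in any other library. Among long noncoding RNA genes, UCA1 (26.5 to 48.8 CPM), LINC02582 (20.1 to 29.6 CPM), and HAGLROS (17.5 to 27.9 CPM) had the widest gaps, and none exceeded 0.501 CPM in another line.

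Among genes lower in DBTRG-05MG, COL1A2, which encodes the alpha-2 chain of type I collagen (chr7:94394895-94431227, plus strand), had 0.0655, 0, and 0.395 CPM, against 101, 138, and 76.7 CPM in U87MG, 176, 252, and 130 CPM in T98G, and 100, 94.9, and 69.6 CPM in U251MG. The groups did not overlap, and the difference was -7.61 ± 0.24 (adjusted p = 1.07e-10). IL6, a pro-inflammatory cytokine, had 0.196, 0.451, and 0.132 CPM in DBTRG-05MG and 12.9 to 105 CPM in the others (-5.83 ± 0.41, adjusted p = 7.75e-08). IGFBP3, which binds insulin-like growth factors, had 2.23, 1.48, and 2.11 CPM against 11.1 to 480 CPM (-5.78 ± 0.51, adjusted p = 7.84e-07). COL1A2 and IL6 were thus near the limit of 3 tags in DBTRG-05MG, while IGFBP3 was low but above it. NNMT, which encodes nicotinamide N-methyltransferase, had 1.18, 4.12, and 1.45 CPM and 29.6 to 239 CPM elsewhere (-5.93 ± 0.39, adjusted p = 3.81e-08). The melanosome transport gene MLPH had 0, 0.0644, and 0 CPM against 18.2 to 172 CPM (-6.58 ± 0.24, adjusted p = 2.15e-10). C1QL1, EMP2, KCNE4, CAV2, and HOXD8 completed the 10 widest gaps, with DBTRG-05MG means of 0.742, 1.55, 0.435, 0.022, and 0.0858 CPM. Long noncoding genes with the widest gaps were APCDD1L-DT, LINC02762, and ENSG00000227496, at 0.282, 0.803, and 0.217 CPM.

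**Figure D1:**
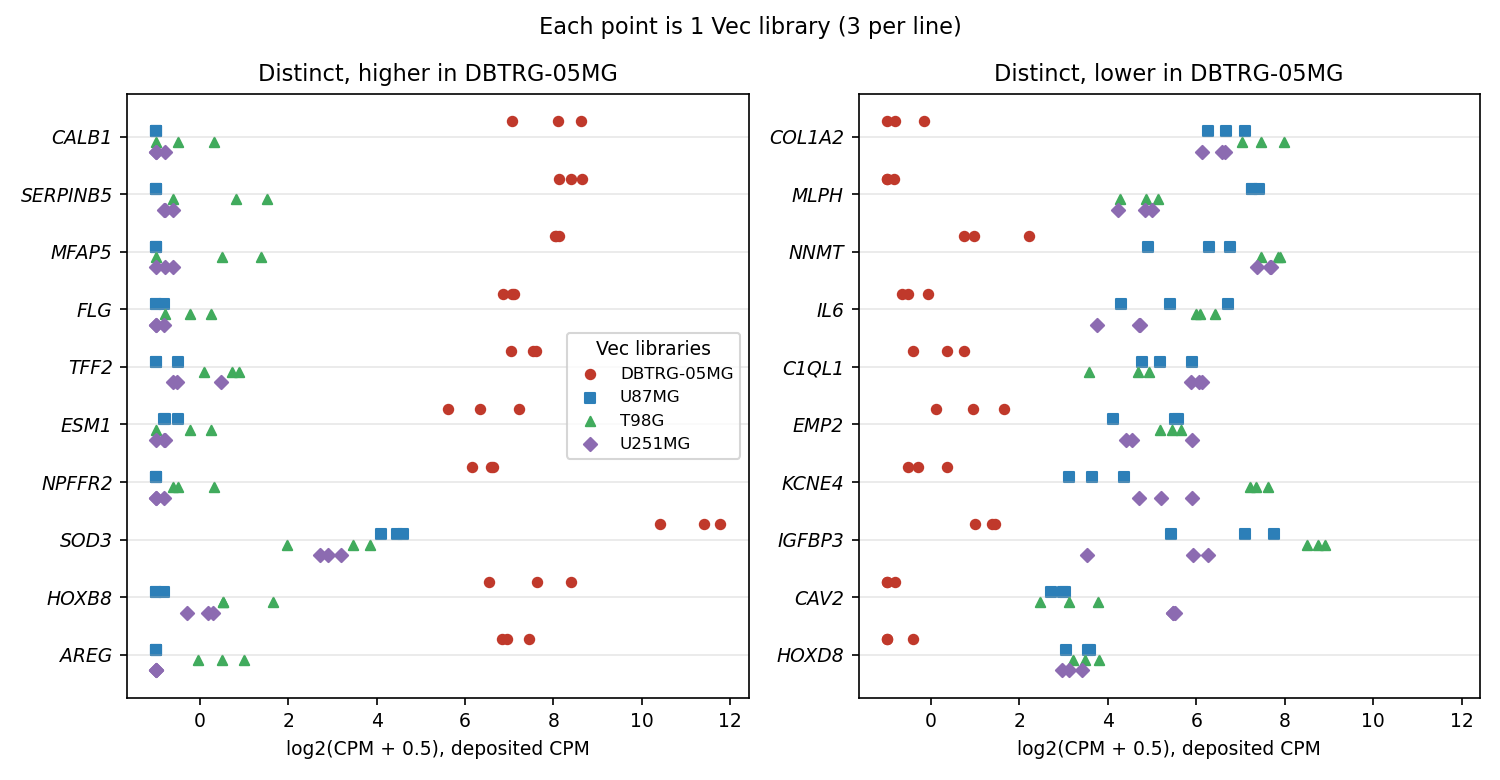
Levels of the 10 protein-coding genes with the widest gap to the nearest line in each direction, on a log2(CPM + 0.5) axis, with 1 point per “Vec” library and 1 colour and symbol per line. For each gene the 3 DBTRG-05MG points lie apart from the 9 points of the other lines, to the right for genes higher and to the left for genes lower. The definition of a distinct gene requires this after scaling.

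A description without a test listed genes that were on in DBTRG-05MG and silent elsewhere. Some 18 genes (0.157%) had at least 5 CPM in each DBTRG-05MG “Vec” library and at most 3 tags in each of the 9 others, and 2 genes (0.0174%) showed the converse. Leaving out T98G “Vec” 1 and 2, chosen after seeing the data, gave 40 and 2. The 14 protein-coding genes on in DBTRG-05MG included KLHDC8A, FAF1, CDKN2C, HOXB5, SLC7A4, GRIA1 (an AMPA-type glutamate receptor subunit), RFLNA, FGF9 (a fibroblast growth factor), TTC9, SPINK5 (a serine protease inhibitor of skin), ZNF135, CLDN3 (a tight-junction claudin), and LRRC38. Only LRRC38 had 0 tags in all 9 other libraries, with 5.37, 5.15, and 5.66 CPM in DBTRG-05MG, at least 22.2-fold above a level of 3 tags. The remaining 4 were the long noncoding genes HAGLROS, RBAKDN, and LINC01665 and the pseudogene PPIAP29, whose tags may be shared with near-identical copies.

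FAF1 and CDKN2C are divergent neighbours on chromosome 1. FAF1 (minus strand, start at 50960267) encodes a FAS-associated factor, and CDKN2C (plus strand, start at 50960745) encodes the cyclin-dependent kinase inhibitor p18. These are their most upstream annotated starts, with 477 bases between them. FAF1 had 22.5, 23.2, and 23.5 CPM in DBTRG-05MG and at most 0.211 CPM in any other library. CDKN2C had 22.7, 16.2, and 23.7 CPM and likewise at most 0.211 CPM elsewhere. Both genes were therefore silent together in the 3 other lines, and DMRTA2, the next gene tested on that side, had 6.13 to 8.43 CPM in DBTRG-05MG and at most 0.313 CPM elsewhere.

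The 2 genes off in DBTRG-05MG alone were MLPH and CAV2. CAV2, which encodes caveolin-2, had 0, 0, and 0.0659 CPM in DBTRG-05MG, 6.11, 7.42, and 7.72 CPM in U87MG, 8.15, 13.3, and 5.06 CPM in T98G, and 43.9, 44, and 45.4 CPM in U251MG. The adjacent CAV1, which encodes caveolin-1, had 568, 751, and 660 CPM in DBTRG-05MG and 40.8 to 278 CPM elsewhere, and was itself distinct in the higher direction (2.07 ± 0.26, adjusted p = 2.44e-05). The neighbours thus differed in opposite directions.

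HOX genes were mostly higher in DBTRG-05MG. Of 39 listed genes, 19 were tested, of which 16 were higher and 2 lower, with a median log2 difference of 2.43 against 0.0133 over all genes tested. For this list and each list below, the shares over all genes tested were 24.2% called higher and 21.6% called lower. Of the HOX genes tested, 9 were distinct higher and 1 lower, and 4 of the 19 reached 5 CPM in DBTRG-05MG alone. HOXB6 had 473, 541, and 510 CPM in DBTRG-05MG, 0.213, 0.618, and 0.561 CPM in U87MG, 8.72, 7.64, and 7.71 CPM in T98G, and 10.5, 18, and 15.1 CPM in U251MG (6.55 ± 0.20, adjusted p = 1.03e-10). HOXB8 had 196, 92.8, and 339 CPM against 0 to 2.67 CPM, and HOXB9 had 264, 163, and 244 CPM against 0 to 17.8 CPM. In each of these genes the DBTRG-05MG libraries exceeded all others.

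Along the cluster, HOXB3, HOXB4, HOXB5, HOXB6, HOXB8, and HOXB9 were distinct, together with the antisense gene HOXB-AS3. HOXB3 had 21.3 to 33.5 CPM against 0.501 to 8.75 CPM, HOXB4 79.2 to 93.8 CPM against 0.568 to 8.21 CPM, and HOXB5 9.4 to 19.8 CPM against 0 to 0.0773 CPM. HOXB7 was the exception within this stretch, since its 76.9 to 86.4 CPM lay close to the 57.1 to 81.8 CPM of U251MG. HOXB2, at 30.3 to 43.5 CPM, matched the range of U87MG (37.9 to 44.8 CPM), and HOXB13, at 8.82 to 10.6 CPM, lay within that of U251MG (6.23 to 19.3 CPM). Because the use of strand in counting is not given in the sources used here, tags of HOXB3 to HOXB6 and of the overlapping HOXB-AS3 cannot be told apart, and the same holds for many other genes named here that overlap an annotated gene on the opposite strand, among them FLG, MFAP5, COL1A2, IL6, CDKN2C, CDKN1A, CAV1, CAV2, MLPH, APCDD1L-DT, ABCB1, and ALDH1L1. In other clusters HOXA3, HOXA7, and HOXC6 were distinct higher, and HOXD8 was distinct lower, with 0, 0.258, and 0 CPM against 7.32 to 13.4 CPM.

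**Figure D2:**
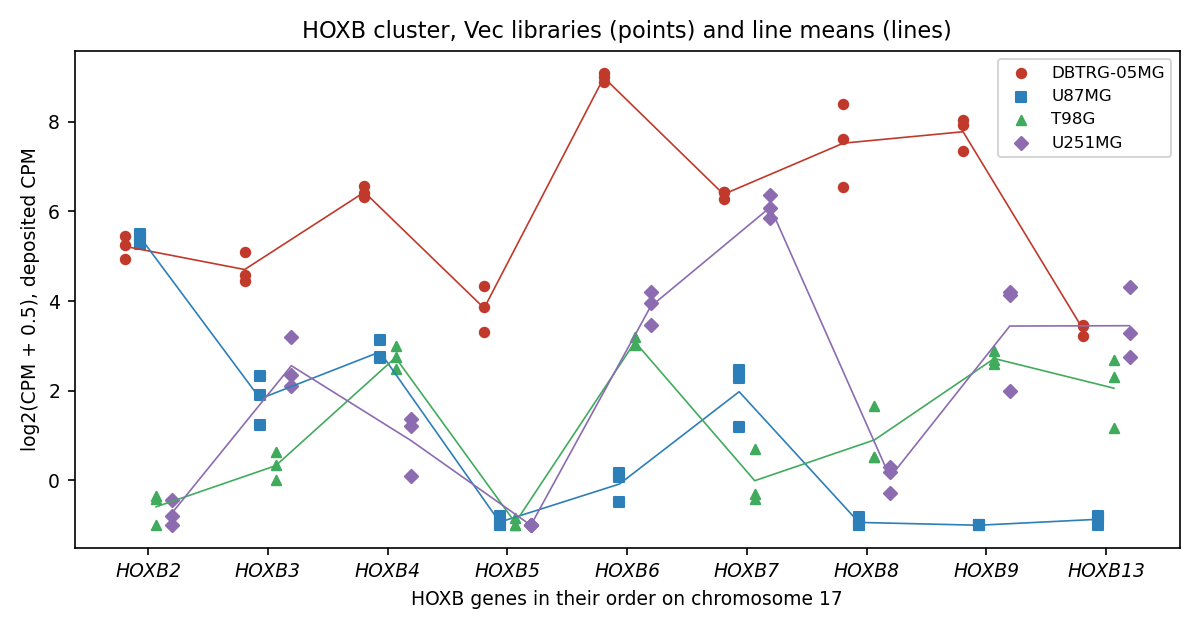
Levels of the HOXB genes tested, in their order along chromosome 17, on a log2(CPM + 0.5) axis, with points for the “Vec” libraries and lines through the mean of each cell line. The DBTRG-05MG line runs above the others from HOXB3 to HOXB9, meets U251MG closely at HOXB7, and meets U87MG at HOXB2.

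Other developmental transcription factors were mixed, with 14 higher and 13 lower of 36 homeobox genes outside the HOX clusters (4 reached 5 CPM in DBTRG-05MG alone and 12 in other lines alone). Of 38 other lineage factors, 13 were higher and 11 lower, and 13 reached 5 CPM in other lines alone. Of 18 forkhead and T-box genes, 6 were higher and 5 lower, and 8 reached 5 CPM in other lines alone. NKX2-5, a cardiac homeobox factor, had 44.6, 43.8, and 49.1 CPM in DBTRG-05MG and at most 0.501 CPM elsewhere (6.08 ± 0.20, adjusted p = 1.07e-10). GATA4, which also acts in the heart, had 26.3 to 37.2 CPM against 9.52 to 16.8 CPM in T98G and at most 0.0796 CPM in the remaining lines. PAX2, a factor of kidney and midbrain development, had 17, 8.56, and 30.8 CPM against 1.44 to 2.88 CPM in T98G and 0 in U87MG and U251MG. KLF5, a factor of epithelial progenitors, had 272, 375, and 305 CPM against 8.33 to 34.3 CPM (3.96 ± 0.36, adjusted p = 9.03e-07). By contrast, SNAI2, which represses epithelial genes, had 0.262, 0.579, and 1.25 CPM against 4.55 to 74.7 CPM (-4.50 ± 0.34, adjusted p = 1.78e-07). Of other members of its list, SNAI1 and TWIST1 were called lower (-1.73 and -0.996) and TWIST2 and ZEB2 higher (0.901 and 0.732). ZEB1 was not called (-0.476), and none of these was distinct. Like SNAI2, TBX2 and MEIS3 were distinct lower, while MEIS2 was distinct higher.

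In the epithelial and keratin list, 10 of 12 genes tested were higher and 1 lower, with a median of 3.21, and 8 were distinct higher. Of the 12, 4 reached 5 CPM in DBTRG-05MG alone, and 12 further genes of the list were under 5 CPM in every “Vec” library. KRT18, a keratin of simple epithelia, had 1260, 946, and 905 CPM in DBTRG-05MG, 209, 363, and 259 CPM in T98G, 75.5, 36.1, and 84.8 CPM in U251MG, and at most 0.309 CPM in U87MG (5.38 ± 0.27, adjusted p = 3.31e-09). Its partner KRT8 had 29.8, 20.1, and 21.2 CPM against 0 to 4.44 CPM, and since both genes overlap on opposite strands, their tags cannot be told apart. Tags at this pair were present in T98G as well, at lower levels.

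Desmosomal plaque genes followed. PKP2 (plakophilin-2) had 50.2 to 67.8 CPM against 0 to 10.3 CPM, JUP (plakoglobin) 54.7 to 107 CPM against 0 to 30.2 CPM, and PKP3 22 to 45.2 CPM against 0.486 to 15.4 CPM. The tight-junction genes CLDN3, CLDN7, and OCLN were distinct as well, with CLDN7 at 14.2 to 25.4 CPM against at most 3.48 CPM. The defining epithelial genes did not accompany them. CDH1 (E-cadherin) had 0.0655, 0.193, and 0.132 CPM, EPCAM 0.131 to 0.258 CPM, and KRT19 0.579 to 1.38 CPM. KRT7, at 16.8 to 17.8 CPM, lay between U87MG and T98G and was not called (0.48 ± 0.35, adjusted p = 0.285), and KRT81 was the member that was lower.

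Of 15 cadherin and adhesion genes tested, 10 were higher and 3 lower, with a median of 2.2, and 3 of the 15 reached 5 CPM in DBTRG-05MG alone. CDH2 (N-cadherin) had 301, 339, and 312 CPM, above U87MG and T98G (8.48 to 20.8 CPM) but close to 2 of the 3 U251MG libraries (267, 145, and 258 CPM), so it was called and was not distinct. CNTN1, NTM, and NCAM2, which encode neuronal adhesion molecules, were distinct. NTM, for instance, had 33.2, 69.2, and 38.1 CPM against 0 to 3.26 CPM (4.87 ± 0.29, adjusted p = 1.73e-08).

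In the neuronal list, 9 of 13 genes were higher and 2 lower (median 1.59), although the sum of the defining neuron markers was not higher (above). Over all genes tested, 24.2% were higher and 21.6% lower. GAP43, a growth-cone protein, had 200, 73.3, and 250 CPM in DBTRG-05MG against 0.156 to 36.2 CPM elsewhere (4.57 ± 0.39, adjusted p = 4.85e-07). DPYSL3, which guides axon growth, had 367, 335, and 465 CPM against 19.2 to 132 CPM. GRIA1, the 1 member tested that reached 5 CPM in DBTRG-05MG alone, had 9.1, 12.2, and 7.97 CPM against at most 0.188 CPM. NRCAM, at 186, 106, and 394 CPM, overlapped a single U251MG library at 108 CPM. RBFOX3, which marks mature neurons, had 0 tags in all 12 libraries, and MAP2 and UCHL1 were the members that were lower. Among channel genes, SCN9A, a voltage-gated sodium channel of sensory neurons, had 60.4, 82.6, and 61.6 CPM against 0.159 to 4.22 CPM (4.92 ± 0.50, adjusted p = 3.17e-06), whereas the calcium channel gene CACNA1C and the purinergic receptor gene P2RX7 were distinct lower.

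Among 18 astrocyte and radial glia genes, 9 were higher and 4 lower (median 0.85), and among 12 neural progenitor genes, 7 were higher and 2 lower (median 1.65, or 1.57 with lines at 0 set to 3 tags). Of these 12, 3 reached 5 CPM in DBTRG-05MG alone and 3 in other lines alone. Of the 18 astrocyte and radial glia genes, 1 reached 5 CPM in DBTRG-05MG alone and 2 in other lines alone. The shares over all genes tested were 24.2% higher and 21.6% lower. GFAP, the astrocyte intermediate filament, had 1.11, 4.12, and 0.79 CPM, overlapping U87MG and T98G (1.62 to 6.46 CPM), against 2035 to 3115 CPM in U251MG. Its call as lower (-3.98 ± 0.35, adjusted p = 8.23e-07) thus rested on U251MG, and without that line the difference was -0.82 and no longer past the threshold. SOX2, a stem cell factor, had 43.9, 44.6, and 52.4 CPM, above U87MG and T98G (0 to 0.562 CPM) and near U251MG (50.8 to 172 CPM). NES, FABP7, and MSI1 shared this pattern, in which DBTRG-05MG stood with U251MG. S100B, at 9.62, 1.87, and 15.1 CPM, was not called (adjusted p = 0.54), with U251MG above it (154 to 343 CPM) and the other two lines below it (0 to 0.772 CPM). SOX9, at 59.6 to 115 CPM, was called higher (1.21 ± 0.37, adjusted p = 0.0171), but among the other lines only U87MG (1.7 to 3.93 CPM) did not overlap it, and without U87MG the difference was -0.32.

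Some members were distinct. PROM1, which encodes the stem cell antigen CD133, had 8.71, 2.77, and 9.68 CPM against at most 0.0811 CPM, and the Notch ligand gene DLL3 had 6.95 to 11.7 CPM against 0 to 2.79 CPM. ALDH1L1 and CLU were the distinct higher astrocyte genes, but neither was distinct in the “WWOX” libraries. ALDH1L1, the 1 astrocyte gene that reached 5 CPM in DBTRG-05MG alone, had a mean of 4.02 CPM against 0, 0.208, and 0.0982 CPM in U87MG, T98G, and U251MG. SLC1A3, the glutamate transporter GLAST, was distinct lower with 0.0655, 0, and 0.198 CPM against 1.87 to 22.9 CPM. MBP had 31.7 to 34.8 CPM against 0 to 7.97 CPM, although the oligodendrocyte factor SOX10 had 0 tags and OLIG2 at most 0.258 CPM.

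Collagens were divided, with 7 of 19 higher and 9 lower (median -0.32), against 24.2% and 21.6% of all genes tested. Of the 19, 1 reached 5 CPM in DBTRG-05MG alone and 6 in other lines alone. Besides COL1A2, COL1A1 had 0.196 to 0.451 CPM against 157 to 500 CPM in U87MG, but only 0.402 to 9.08 CPM in T98G and U251MG. COL6A3 had 0.131 to 0.322 CPM against 221 to 1299 CPM in U87MG and T98G and 0.402 to 1.19 CPM in U251MG. Outside that list, the neighbouring basement membrane collagen genes COL4A3 and COL4A4 were distinct higher at 7.71 to 9.4 CPM and 7.53 to 9.66 CPM, against at most 0.405 and 1.42 CPM. FN1 (fibronectin) had 13.2, 9.72, and 10.7 CPM against 12.5 to 381 CPM and was called lower (-2.73 ± 0.35, adjusted p = 2.91e-05), although 1 U251MG library fell within its range. SPOCK1, a testican proteoglycan, was distinct higher at 298, 172, and 564 CPM against 2.57 to 61.9 CPM.

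Integrin and laminin genes had 14 of 22 higher and 5 lower (median 0.94), and 5 of the 22 reached 5 CPM in other lines alone. LAMA5, a laminin chain of epithelial basement membranes, had 222, 233, and 177 CPM against 2.1 to 66.4 CPM (4.47 ± 0.19, adjusted p = 7.83e-10), and the collagen receptor gene ITGA2 had 47.9 to 80.2 CPM against 4.87 to 38.5 CPM. Genes of mesenchymal glioblastoma showed 7 of 23 higher and 5 lower (median 0.22), close to the background of 24.2% and 21.6%. CHI3L1, which encodes the secreted glycoprotein YKL-40, was distinct lower, with 0.262, 0.129, and 1.05 CPM against 4.38 to 573 CPM (-6.42 ± 0.56, adjusted p = 7.32e-07). CD44, the hyaluronan receptor, had 3092, 2028, and 3520 CPM against 679 to 2087 CPM and was called higher (0.97 ± 0.21, adjusted p = 0.00182), with its lowest library under the highest of T98G. VIM was not called (0.37 ± 0.19, adjusted p = 0.116).

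Among proteases and their inhibitors, the plasminogen activator gene PLAT had 201, 156, and 297 CPM against 4.25 to 91.7 CPM, and its inhibitor gene SERPINE2 had 489, 462, and 551 CPM against 60.7 to 336 CPM. The membrane-type metalloprotease gene MMP14 was distinct lower, with 63.5 to 85.7 CPM against 126 to 478 CPM. MMP3 had 0 tags in DBTRG-05MG, 133 to 444 CPM in U87MG, and 0.402 to 11.7 CPM in the others.

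Of 27 receptor tyrosine kinase genes tested, 12 were higher and 10 lower, with a median of 0.20 (3 reached 5 CPM in DBTRG-05MG alone and 6 in other lines alone). EGFR, at 74.4, 72.1, and 89.1 CPM, lay below every other library (101 to 192 CPM) and was lower (-0.88 ± 0.16, adjusted p = 0.000647), a difference too small for the distinct set. Of genes for EGFR ligands, only AREG (above), TGFA, and EREG were looked at, EREG after its values were seen, and other ligand genes were not examined. TGFA was higher at 48.4 to 88.8 CPM (overlapping U251MG at 22.6 to 73 CPM), and EREG was higher at 111, 182, and 139 CPM. EREG was lower in U87MG by only 0.82 on the log2 scale and near 0 in T98G and U251MG. MET, the hepatocyte growth factor receptor gene, had 154, 183, and 258 CPM against 6.23 to 111 CPM, and EPHA2, an ephrin receptor gene, had 289, 317, and 216 CPM against 2.55 to 103 CPM.

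The neurotrophin receptor genes NTRK2 and NTRK3 were distinct higher, at 9.98 to 32.8 CPM and 26 to 32.6 CPM, against at most 0.811 and 7.95 CPM. PDGFRB, TYRO3, and PTK7 were distinct lower. PDGFRA, which marks proneural tumours, had 0.129 to 0.527 CPM and did not separate from U87MG (0.071 to 0.631 CPM). MAPK feedback and output genes had 12 of 19 higher and 2 lower (median 1). The feedback inhibitor gene SPRY2 had 127, 77.9, and 174 CPM against 8.41 to 50.8 CPM, and SPRY4 had 83.9, 138, and 100 CPM against 6.54 to 41.8 CPM. DUSP4 was called higher but was not distinct, with 145 to 195 CPM against up to 144 CPM in T98G, DUSP6 had at most 1.71 CPM in any library, and IER3 was distinct lower at 0.193 to 0.198 CPM.

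Among cell cycle inhibitor genes, CDKN1A and CDKN2C were distinct, whereas CDKN2A and CDKN2B were as low in U87MG and U251MG. The locus 9p21 genes CDKN2A and CDKN2B had 0 tags in all 3 DBTRG-05MG libraries, which allows levels of up to 0.193 to 0.198 CPM (3 tags). U87MG was likewise at 0 for both and U251MG at 0 to 0.0811 CPM, while T98G had 10.7 to 33.5 CPM of CDKN2B. In contrast, CDKN1A, which encodes the cyclin-dependent kinase inhibitor p21, had 1175, 1473, and 1670 CPM in DBTRG-05MG against 76.2 to 515 CPM (3.05 ± 0.18, adjusted p = 1.32e-08). MDM2, which encodes a ubiquitin ligase, had 154, 170, and 275 CPM against 27.6 to 71.9 CPM (1.81 ± 0.19, adjusted p = 3.2e-06), and SESN1 had 20 to 24.2 CPM against 0.701 to 8.91 CPM. RB1 and CCND1 were distinct higher too. In the list of 9p21, RB, and cell cycle pathway genes, which also holds cyclins, kinases, and MDM2, 9 of 19 were higher and 5 lower, and 6 were distinct higher. Of the 19, 1 reached 5 CPM in DBTRG-05MG alone and 2 in other lines alone.

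G2/M and mitotic genes showed 2 of 24 higher and 2 lower, fewer than the background shares, with a median of -0.23 that was -0.07 without scaling. MGMT, the repair enzyme for alkylated guanine, had 0, 0.0644, and 0 CPM in DBTRG-05MG, 0 to 0.142 CPM in U87MG, 0.603 to 1.99 CPM in U251MG, and 90.6 to 149 CPM in T98G. WWOX had 20.4, 22.2, and 21.3 CPM, below each other “Vec” library (31.4 to 57.2 CPM), and was lower (-0.97 ± 0.16, adjusted p = 0.000187). POLE4, a subunit of DNA polymerase epsilon, was lower at 38, 24.4, and 27.6 CPM (-2.19 ± 0.25, adjusted p = 1.1e-05) and overlapped a T98G library at 34.6 CPM.

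Of 25 cytokine and chemokine genes, 8 were higher and 8 lower, and 4 reached 5 CPM in DBTRG-05MG alone and 6 in other lines alone. CSF1, a macrophage growth factor, was distinct lower at 15.8, 11.7, and 16.1 CPM against 85.6 to 214 CPM (-3.34 ± 0.23, adjusted p = 6.26e-08). CXCL1, which attracts neutrophils, was distinct higher at 41.2, 14.6, and 25.4 CPM against 0 to 9.23 CPM, as were CXCL6 and CCL5. TNFAIP3, an inhibitor of NF-kappa-B signalling, had 61.2 to 89.6 CPM against 7.77 to 34.2 CPM. Interferon-stimulated genes had 4 of 26 higher and 2 lower and no distinct member, and without scaling 9 were higher.

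Wnt ligands and antagonists had 6 of 16 higher and 8 lower (median -0.69), with 3 that reached 5 CPM in DBTRG-05MG alone and 7 in other lines alone. WNT7A, a ligand of vascular development in the brain, had 25.2, 29, and 29.6 CPM in DBTRG-05MG and at most 0.796 CPM elsewhere (5.52 ± 0.24, adjusted p = 9.8e-10), and WNT9A had 11.5 to 14.3 CPM against 0 to 3.8 CPM. The nuclear effector gene LEF1 was distinct lower, with 1.11, 1.93, and 2.77 CPM against 5.47 to 29.2 CPM. In the BMP and TGF-beta list, 8 of 24 were higher and 5 lower (3 reached 5 CPM in DBTRG-05MG alone and 6 in other lines alone). The 3 distinct higher genes, NOG, CHRD, and FST, encode the secreted antagonists noggin, chordin, and follistatin. NOG had 6.42, 7.53, and 6.52 CPM against 0 to 0.752 CPM, CHRD 4.06 to 8.04 CPM against 0 to 0.67 CPM, and FST 10.9, 14.7, and 27.2 CPM against 1.47 to 10.9 CPM, the last in a T98G library at the lowest DBTRG-05MG value. SMAD6, an intracellular BMP inhibitor, was distinct lower.

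The list of NRF2 targets and xenobiotic enzymes had 16 of 28 lower and 2 higher, with a median of -1.34, and 7 of the 28 reached 5 CPM in other lines alone. GCLC and GCLM, the subunits of the enzyme that limits glutathione synthesis, were distinct lower (GCLM only after scaling, since its deposited CPM overlapped that of U87MG), GCLC with 8.58, 7.73, and 7.11 CPM against 14.4 to 150 CPM (-2.35 ± 0.22, adjusted p = 1.49e-06). NQO1 had 152, 171, and 128 CPM against 210 to 261 CPM in U87MG, 550 to 710 CPM in U251MG, and 2344 to 2925 CPM in T98G. Cholesterol synthesis genes had 10 of 21 lower and 2 higher (median -0.51), with SQLE (squalene epoxidase) distinct lower at 14.2, 25.1, and 21.2 CPM against 36.9 to 88.8 CPM. Both lists leaned to lower levels under the deposited scaling as well, with 15 and 9 genes lower.

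**Figure D3:**
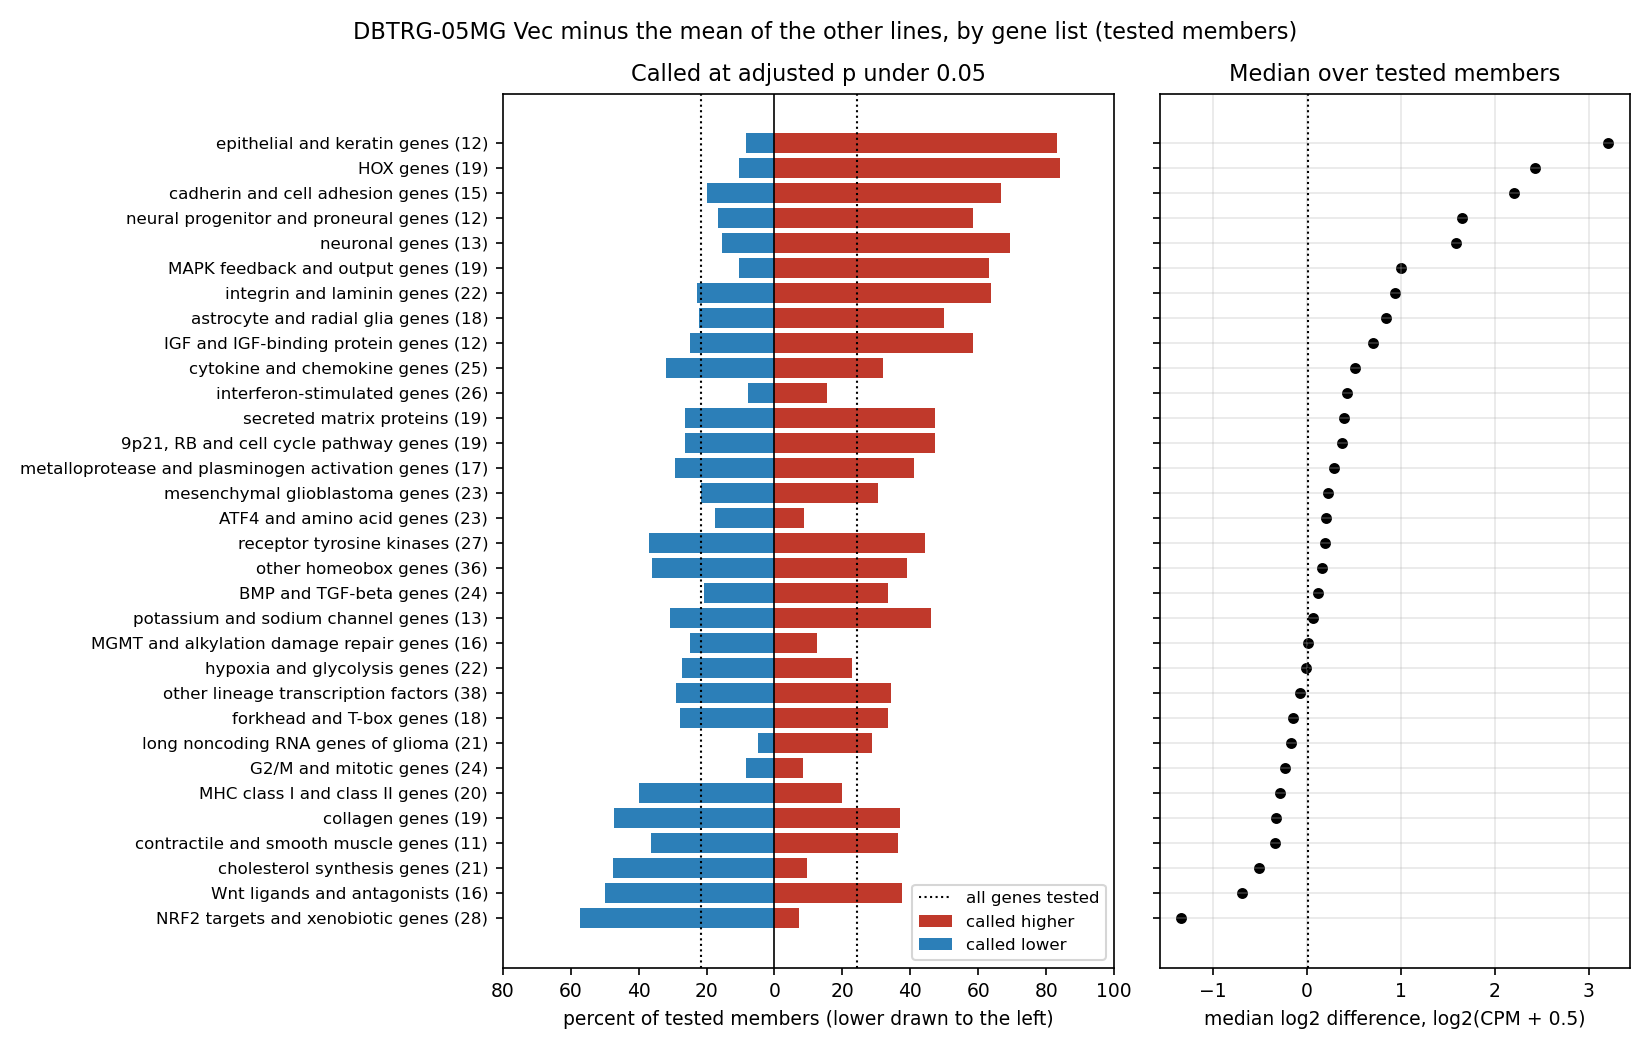
Share of tested members called higher (right) or lower (left) in DBTRG-05MG “Vec” than in the mean of the other lines, with the median log2 difference of each list (number of tested members in parentheses). Dotted lines give the values over all genes tested (24.2% higher, 21.6% lower, median 0.0133). Epithelial and HOX genes have the highest medians (3.21 and 2.43) and the NRF2 list the lowest (-1.34).

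Without scaling, the median difference of all genes moved by 0.159, from 0.0133 to 0.173, and 62.8% instead of 52.9% of calls were higher. The median of forkhead and T-box genes, of other lineage transcription factors, and of hypoxia genes then changed sign (from -0.15 to 0.02, from -0.08 to 0.06, and from -0.01 to 0.16).

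Distinct genes were partly neighbours. Runs of at least 3 distinct genes with at most 1 other tested gene between neighbours numbered 23 for higher genes (81 genes) and 5 for lower genes (20 genes). The largest higher run was the HOXB stretch (chr17:48548870-48626358), with 7 of 8 tested genes. Another run on chromosome 21 held TFF3, TFF2, TMPRSS3, and SLC37A1, of which TMPRSS3, a transmembrane protease gene, had 16.3 to 29 CPM against 0 to 1.55 CPM. The drug efflux gene ABCB1 was distinct at 3.14 to 8.69 CPM next to ABCB4 at 22.2 to 37.7 CPM. Among lower runs, one on chromosome 6 held 5 histone genes, whose tags may be shared among near-identical copies.

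Levels also differed by chromosome. Relative to all genes tested, the median log2 difference was 0.46 for 431 genes of chromosome 4 and 0.40 for 633 genes of chromosome 12. Over all genes, without the level filter, these medians were 0.085 and 0.107. On chromosome 4, 192 genes were called higher and 38 lower, and on chromosome 12, 253 and 70. Chromosome 4 exceeded each other line (0.17, 0.73, and 0.56 against U87MG, T98G, and U251MG), as did chromosome 12 (0.19, 0.31, and 0.59). The lowest medians, -0.28 each, were those of chromosomes 14 and 20. Chromosome 14 differed mainly from U87MG (-0.60) and much less from T98G (-0.02) and U251MG (-0.12). Copy number was not measured here, so its part in these medians was not tested.

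**Figure D4:**
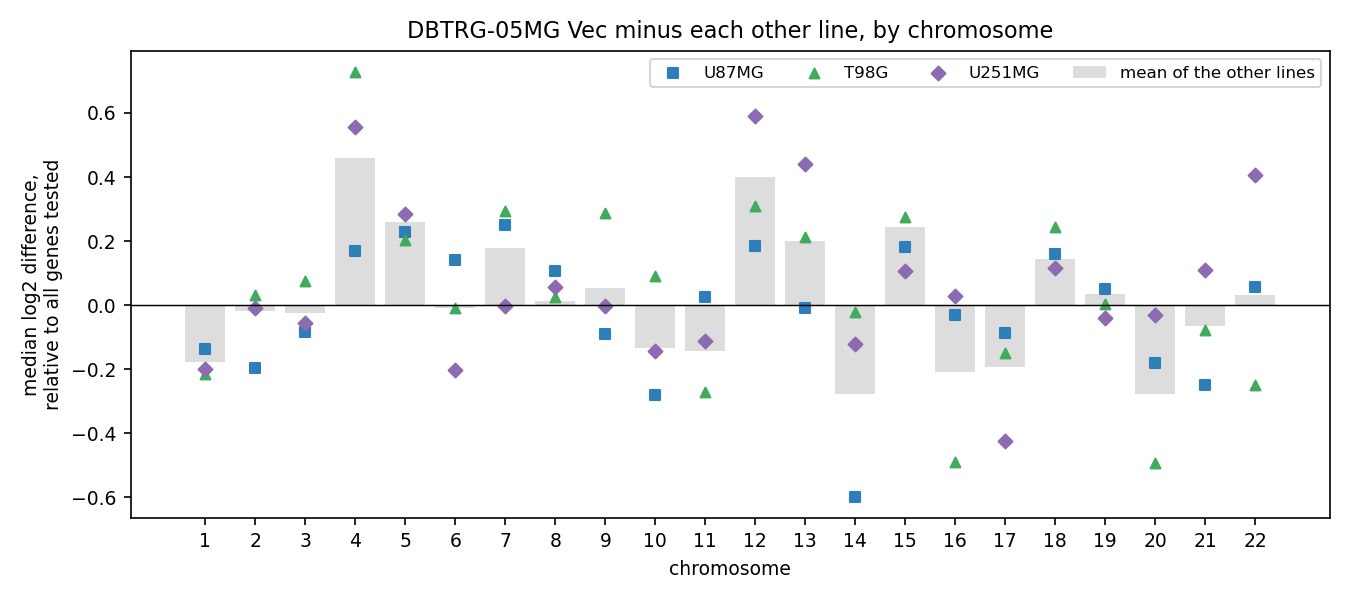
Median log2 difference of each autosome between DBTRG-05MG “Vec” and the other lines, relative to all genes tested, as grey bars for the mean of the other lines and symbols for each line. On chromosomes 4 and 12 all symbols lie above 0, while on chromosome 14 the U87MG symbol lies at -0.60 and the others near 0.

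The “WWOX” libraries of the same lines, cultured in the same media, gave an independent set of libraries in which the comparison was repeated. Of the 599 genes distinct higher in “Vec”, 598 had the same sign in “WWOX”, 539 were also called, and 400 (66.8%) were again distinct, against 5.3% of 11584 genes tested there. Of the 274 distinct lower, all 274 had the same sign, 257 were called, and 128 (46.7%) were again distinct, against 2.38%. The difference between DBTRG-05MG and the other lines itself differed between the “WWOX” and the “Vec” libraries for 88 of 11474 genes (0.767%), 35 of them distinct. PAX2 changed most among the genes named here. It had 17, 8.56, and 30.8 CPM in DBTRG-05MG “Vec” and 0.531, 0.648, and 0.274 CPM in “WWOX”, without overlap, and its difference from the other lines moved by -4.36 (adjusted p = 1.93e-06). WNT7A had 25.2, 29, and 29.6 CPM in “Vec” and 4.19, 3.76, and 3.84 CPM in “WWOX”, and its difference moved by -2.56 (adjusted p = 1.02e-05).

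**Figure D5:**
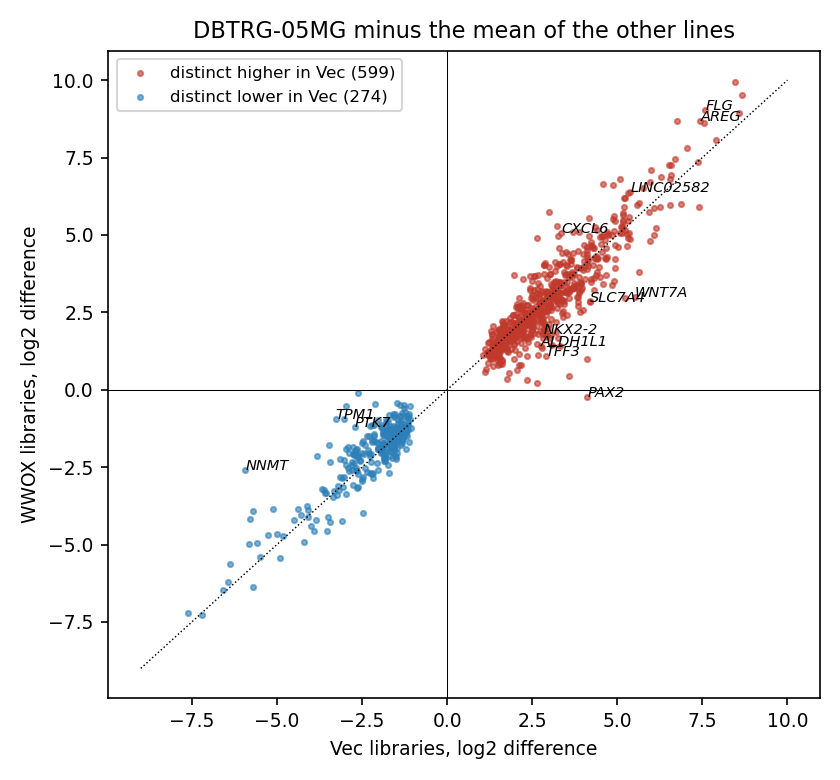
Log2 difference of DBTRG-05MG from the mean of the other lines in the “Vec” libraries (horizontal axis) and in the “WWOX” libraries (vertical axis), with 1 point per distinct gene and a dotted line of equality. Points follow the line of equality, and labelled genes are those with a test of the change past the threshold, with PAX2 the furthest from it (4.12 in “Vec”, -0.22 in “WWOX”).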

How the data were processed

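Established glioblastoma lines were profiled by CAGE-Seq (75 nt reads, RNA integrity number over 8). The authors aligned reads to hg38 with STAR, handled them with SAMtools, and deposited CPM for each gene, which sum to 1000000 in every library. The annotation release is not given in the sources used here. GENCODE 44 gave symbols and positions, matching 43033 of 43037 genes. All values were whole tags over the library total (100% within a tolerance of 0.01 tags). The deposited single-library tables (24) equalled their columns. The labels' processing notes also name limma 3.42, whose use is not part of the deposited CPM.

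The 12 “Vec” libraries held 12333788 to 15960454 tags. Autosomal genes with at least 5 CPM in 1 library were scaled by an unweighted trimmed mean of M-values (30% of M, 5% of A trimmed). A limma (version 3.58.1) trend model of 4 line means was fitted to log2(CPM + 0.5) with 8 residual degrees of freedom, in R 4.3.3. The contrast was DBTRG-05MG minus the equally weighted mean of the other lines, or minus each line. Tests were two-sided with Benjamini-Hochberg adjustment over all genes tested, at a threshold of 0.05. The fit was also run on simulated libraries in which only a small set of genes was changed, in DBTRG-05MG alone. That setting lacks the frequent differences between lines seen here, so it does not bear on them. edgeR (4.0.16) and DESeq2 (1.42.0) on recovered tags were alternatives.

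The design and its gene lists (36) were chosen with earlier results of these data known. Named genes were the 10 protein-coding distinct genes with the widest gap in each direction, 3 long noncoding genes each way, up to 8 protein-coding genes on or off, up to 4 distinct genes of each list, fixed glioma genes, and members a list is known for. Others, among them CAV1, DMRTA2, COL4A3, COL4A4, ABCB1, ABCB4, TMPRSS3, EREG, GATA4, and the remaining genes on in DBTRG-05MG, were chosen after their values were seen. Some genes that meet the rule are not reported here. Replicate numbers did not pair libraries (correlations of deviations from -0.32 to 0.39), so no block was used.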

Additional observations from a re-analysis of the deposited data

Results flagged for a closer look

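For 13 of the genes named, the difference between DBTRG-05MG and the other lines differed between the “WWOX” and the “Vec” libraries in a test of that change (limma fit of all 24 libraries, adjusted p under 0.05). The change moved toward higher relative levels in DBTRG-05MG “WWOX” for NNMT (3.32), TPM1 (2.31), CXCL6 (1.66), PTK7 (1.48), FLG (1.42), AREG (1.20), and LINC02582 (0.97), on the log2 scale. The tags of genes typical of DBTRG-05MG in T98G “Vec” 1 and 2 (above) count toward the other lines in “Vec” only. This test was not repeated without those libraries, so their part in the changes of FLG and AREG, near 0 elsewhere, was not tested. It moved toward lower relative levels for PAX2 (-4.36), WNT7A (-2.56), TFF3 (-1.85), SLC7A4 (-1.39), ALDH1L1 (-1.37), and NKX2-2 (-1.04). NNMT had 62.9, 16.1, and 25.7 CPM in DBTRG-05MG “WWOX” against 1.18, 4.12, and 1.45 CPM in “Vec”, and TPM1 had 122, 119, and 159 CPM against 37.3, 34.1, and 49.2 CPM. For SLC7A4, which was near 0 in U87MG “Vec”, the U87MG “WWOX” libraries had 3.67, 3.12, and 3.47 CPM. TFF3 had 0.236, 0.972, and 0.822 CPM in DBTRG-05MG “WWOX” against 7.46, 1.67, and 3.49 CPM in “Vec”.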

How the results depend on the processing

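Each count was recomputed under other pseudocounts, filters, scalings, tools, and sets of libraries. A model with only 2 groups, DBTRG-05MG and the rest, called 1003 genes higher and 761 lower, since its error includes the spread between the other lines. Distinct higher genes numbered 365 with a mean of at least 5 CPM, 1034 without U251MG, and 264 with a log2 difference of at least 2. Distinct lower genes numbered 492, 475, and 656 without U87MG, T98G, and U251MG, and 59 with a log2 difference of at least 2. Genes on numbered 5 at 10 CPM, 1 with 0 tags elsewhere, 29, 60, and 39 without U87MG, T98G, and U251MG, and 40 without T98G “Vec” 1 and 2 (added after seeing the data). Genes off numbered 1 at 10 CPM, 0 with 0 tags, and 7, 9, and 12 without U87MG, T98G, and U251MG (no test underlies these counts). Leaving out 1 library gave 2122 to 3144 genes higher, 1803 to 2782 lower, 535 to 654 distinct higher, 233 to 294 distinct lower, 18 to 29 on (29 without DBTRG-05MG “Vec” 2 or T98G “Vec” 2), and 2 to 4 off (4 without DBTRG-05MG “Vec” 2). The replicate block gave 2658 higher and 2367 lower, with 595 and 272 distinct genes shared with the fit without it.

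Of 142 distinct genes named, all kept their direction and their call against the mean of the other lines under all 3786 values recomputed. The definition of distinct was not rechecked in these values, and the 2-group model was not among them. With the deposited CPM, 594 of the 599 distinct higher and 201 of the 274 distinct lower genes were still distinct. Of 182 named genes called, distinct or not, 38 of 4860 recomputed values lost the call. Single values that changed sign, among the other named genes, were KRT7 without U87MG (-0.71), S100B with a pseudocount of 1 (-0.000), without DBTRG-05MG “Vec” 3 (-0.156; range over libraries left out to 1.112), without U87MG (-0.80), and without T98G (-1.20), SOX9 without U87MG (-0.32), and VIM without T98G (-0.22). The cause of these shifts was not tested.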

Other observations

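Further lists were described beside the background of 24.2% higher and 21.6% lower over all genes tested. Of 20 MHC class I and class II genes tested, 4 were higher and 8 lower, and 7 of the 20 reached 5 CPM in other lines alone. B2M, the light chain of class I molecules, had a mean of 5630 CPM against 1460, 2020, and 3270 CPM in U87MG, T98G, and U251MG (log2 difference 1.20, limma adjusted p = 0.00142), while the class II genes HLA-DRA and HLA-DRB1 were high in U87MG alone. Of 12 genes of the insulin-like growth factor list, 7 were higher and 3 lower, and 2 of the 12 reached 5 CPM in other lines alone. IGFBP2 had a mean of 683 CPM in DBTRG-05MG and 803 CPM in U251MG against 144 CPM in T98G and 0.436 CPM in U87MG. Among glioma-associated long noncoding RNA genes, 6 of 21 were higher, close to the background share, and 1 was lower. Of these 21, 2 reached 5 CPM in DBTRG-05MG alone and 1 in other lines alone. MIR31HG was distinct higher at 88.4, 51.3, and 91.9 CPM, against 15.9 to 17.9 CPM in T98G and at most 0.162 CPM in the remaining lines, and MEG3 had 4.41 to 8.43 CPM against 0.0773 to 3.88 CPM.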
